A study of Homo sapiens with 96 samples.

Results

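The 8 genes described here encode adaptor proteins that connect mRNAs to the deadenylation machinery: ZFP36, ZFP36L1 and ZFP36L2 of the ZFP36 family, and BTG1, BTG2, BTG3, TOB1 and TOB2 of the BTG/TOB family. They were chosen by symbol and not by a cut on measured values, although earlier results of these data were known. Each was found as 1 of the 44659 entries of the count table. The table covered 96 QuantSeq libraries from A375 cells, an established human melanoma line with a mutated BRAF kinase. QuantSeq primes on the poly(A) tail and reads the 3′ end of transcripts, so that counts do not scale with transcript length. Cells were kept for 18 h in DMSO or in the BRAF inhibitor vemurafenib and the MEK inhibitor cobimetinib, 500 nM of each (MAPKi). They then received DMSO alone (vehicle), cycloheximide at 100 µg/ml (CHX, an inhibitor of translation elongation), triptolide at 25 µM (T, an inhibitor of transcription) or both (TCHX), with CHX added 5 min before triptolide, and were harvested after 0, 1, 3 or 5 h. This gave 32 groups of 3 libraries, all from cytoplasmic RNA of the same line. A 0 h sample of an inhibitor arm was harvested as the triptolide or its DMSO was added.

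ZFP36 (tristetraprolin) and its relatives ZFP36L1 and ZFP36L2 are zinc finger proteins that bind AU-rich elements in the 3′ untranslated region (3′ UTR) of short-lived mRNAs and recruit the CCR4-NOT complex, which shortens the poly(A) tail and so starts decay. BTG and TOB proteins restrain cell growth and bind the CCR4-NOT nucleases CNOT7 and CNOT8 through a shared N-terminal domain, and TOB1 and TOB2 also contact poly(A)-binding proteins. ZFP36 and BTG2 are known as genes that respond rapidly to growth factors and stress, and the ZFP36 proteins are targets of kinases downstream of the MAPK pathways. Only mRNA was measured in these libraries, and not the proteins or their activity.

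The mRNAs of the adaptors can carry the kind of sites that adaptors recognize, and the sites below are shown because they separate the ZFP36 family from the BTG/TOB family. In the 3′ UTRs of MANE Select transcripts (GENCODE v44, GRCh38, strand of the mRNA written with T for U), the AU-rich nonamer TTATTTATT was present once in each of the 3 ZFP36 family mRNAs and in none of the 5 BTG/TOB mRNAs. It was found in 8.6% of 18780 such 3′ UTRs, and in 5.2%, 9.63% and 9.39% of 3′ UTRs of a length close to that of ZFP36, ZFP36L1 and ZFP36L2. For lengths close to those of BTG1, BTG2, BTG3, TOB1 and TOB2, the shares were 17.7%, 11.1%, 2.46%, 5.36% and 13.5%. Absence of the nonamer was thus the common case at each of these lengths. The capitals mark the nonamer, which starts 507, 1438 and 853 bases after the stop codon, with 10 bases on either side. The ZFP36 site lies at chr19:39409196-39409224 (plus strand), the ZFP36L1 site at chr14:68788077-68788105 (minus strand) and the ZFP36L2 site at chr2:43223448-43223476 (minus strand).
ZFP36: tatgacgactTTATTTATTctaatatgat
ZFP36L1: aactgttggaTTATTTATTttagaaattc
ZFP36L2: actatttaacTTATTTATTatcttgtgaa

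The shorter pentamer ATTTA, which also lies within the nonamer, was present in all 8 members, with 5 copies in ZFP36, 8 in ZFP36L1, 5 in ZFP36L2, 5 in BTG1, 2 in BTG2, 3 in BTG3, 4 in TOB1 and 3 in TOB2, and in 68.3% of all 3′ UTRs. The 3′ UTRs were 708 bases long in ZFP36, 1871 in ZFP36L1, 1917 in ZFP36L2, 3802 in BTG1, 2164 in BTG2, 440 in BTG3, 757 in TOB1 and 2817 in TOB2. Among 3′ UTRs of a close length, 6.04% held at least as many pentamers as ZFP36, 15.6% as ZFP36L1 and 41.5% as ZFP36L2. For the BTG/TOB family this share was 74.0% for BTG1, 82.1% for BTG2, 10.5% for BTG3, 12.9% for TOB1 and 80.1% for TOB2. A match of letters is a description and was not tied to binding or decay by any measurement here.

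**Figure D1:**
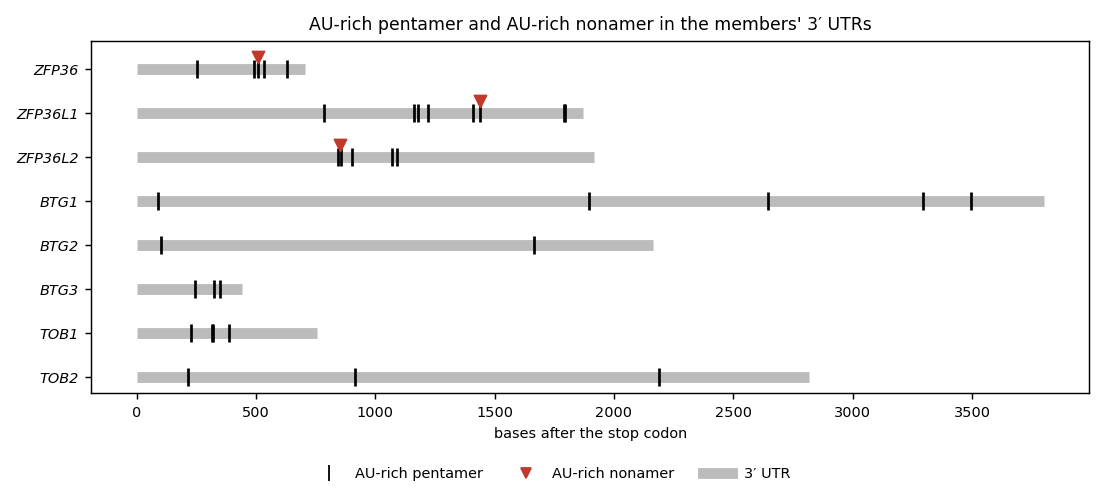
Positions of AU-rich pentamers (ticks) and AU-rich nonamers (triangles) along the 3′ UTR of each member, with the distance from the stop codon in bases on the x axis and 1 row per gene. The nonamer appears once in each of the 3 ZFP36 family rows and in none of the 5 BTG/TOB rows.

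In GRCh38, ZFP36 lies at chr19:39406847-39409412 (plus strand), ZFP36L1 at chr14:68787660-68796253 (minus strand), ZFP36L2 at chr2:43222402-43226606 (minus strand), BTG1 at chr12:92140278-92145846 (minus strand), BTG2 at chr1:203305491-203309602 (plus strand), BTG3 at chr21:17593653-17612945 (minus strand), TOB1 at chr17:50862223-50867978 (minus strand) and TOB2 at chr22:41433494-41446801 (minus strand). Annotated noncoding RNAs overlap ZFP36L1 and BTG1 on the same strand (LINC01619 for BTG1) and ZFP36L2, BTG1, BTG3 and TOB1 on the opposite strand (among them BTG1-DT, BTG3-AS1 and TOB1-AS1). Whether the counting used strand is not stated, so reads of these overlapping RNAs cannot be told apart from those of the members.

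Totals per library ran from 2381351 to 12520154 counts, with a median of 7143396. All 8 members passed the filter on low counts, with 104517 counts over all libraries for ZFP36L1, 48119 for ZFP36L2, 400479 for BTG1, 40091 for BTG3, 7678 for TOB1 and 35214 for TOB2. ZFP36 had 523 counts in all and none in 23 libraries, and it passed only through the CHX groups, where it was high. BTG2 had 1497 counts and none in 15 libraries. Melanoma markers were present at vehicle 0 h, among them SOX10 (236.5 CPM in DMSO and 335.9 CPM in MAPKi) and MITF (351.8 and 487.5 CPM), whereas MLANA was at 0.158 and 1.2 CPM and PRAME at 0. Of 10 melanoma markers tested, 6 were called higher in MAPKi and 2 lower, CSPG4 (log2 difference −2.36) and S100B (−0.49), and the summed level of the list was 1340 CPM in DMSO and 3400 CPM in MAPKi. The summed level of 12 fixed target genes of the MAPK pathway was 2180 CPM in DMSO and 228 CPM in MAPKi, and all 12 were called lower. At vehicle 0 h, 6 keratinocyte markers summed to 127 CPM in DMSO and 125 CPM in MAPKi, most of it KRT10, 6 blood cell markers to 2.61 and 15.6 CPM, most of it CD68, and 6 endothelial and fibroblast markers to 0.921 and 2.34 CPM. In each of these 3 lists 2 markers were tested and 1 was called higher in MAPKi (KRT14, CD68 and VWF), and the part of such shifts in the members' values was not tested.

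The first comparison asked how the adaptors differed after 18 h of MAPKi, in the vehicle arm at 0 h. BTG1 mRNA was 3.05-fold higher in MAPKi than in DMSO, whereas ZFP36L1, ZFP36L2 and BTG3 mRNAs were lower, so that members of the same family moved in opposite directions. Of the 8 members, 5 were called, 2 higher and 3 lower, against 45.9% of all 14948 genes tested, 21.9% higher and 24% lower, so that the number called was close to what the background gives. The median log2 difference over all genes was 0.03, and 47.8% of the calls were higher, or 57.8% when libraries were scaled by total counts, with a median of 0.16. Since these were bulk samples, less RNA per cell and fewer expressing cells could not be told apart.

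In the ZFP36 family, ZFP36L2 had the larger change. Its level, in CPM (a count relative to the TMM-scaled library total), was 85.6, 107 and 137 in the DMSO libraries and 27.3, 19.3 and 27.0 in the MAPKi libraries, and the groups did not overlap. The log2 difference was −2.16 ± 0.26 (SE; adjusted p = 6.25e-11). ZFP36L1, which acts with ZFP36L2 in restraining proliferation of lymphocyte precursors, was at 158, 193 and 235 CPM in DMSO and 106, 90.5 and 112 CPM in MAPKi, again without overlap (log2 difference −0.93 ± 0.16, adjusted p = 1.06e-06). ZFP36 itself was close to the limit of detection, with 4, 3 and 5 counts in DMSO and 4, 0 and 7 counts in MAPKi, and no difference was detectable at this depth (adjusted p = 0.897). The value of 0 allows up to 3 counts, or 0.537 CPM, in that library.

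In the BTG/TOB family, BTG1 was at 343, 308 and 307 CPM in DMSO and 972, 919 and 1031 CPM in MAPKi. The groups were far apart, with a log2 difference of 1.61 ± 0.11 (adjusted p = 7.14e-23). BTG3 moved the other way, from 74.4, 74.5 and 71.7 CPM to 37.2, 42.2 and 34.0 CPM (log2 difference −0.96 ± 0.11, adjusted p = 2.3e-11). TOB2 was at 45.4, 50.2 and 54.1 CPM in DMSO and 67.6, 63.0 and 60.6 CPM in MAPKi. Its log2 difference of 0.35 ± 0.15 was just past the threshold (adjusted p = 0.0445), and leaving out any 1 replicate took it back, with adjusted p = 0.266, 0.0829 and 0.0568 without replicates 1, 2 and 3. TOB1 was at 10.4, 9.55 and 10.7 CPM against 13.9, 15.6 and 8.62 CPM, which overlapped (log2 difference 0.30, adjusted p = 0.348). BTG2 had 5, 7 and 16 counts in DMSO and 1, 15 and 13 counts in MAPKi (adjusted p = 0.859). When the same contrast was averaged over the 4 vehicle times, BTG2 (log2 difference 0.90 ± 0.31, adjusted p = 0.00895) and TOB1 (0.48 ± 0.13, adjusted p = 0.00055) were also called higher in MAPKi. In that setting 69% of all 14948 genes were called, 5357 higher and 4954 lower, so such calls were common over all genes.

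Within the vehicle arm, 1 h and 5 h were tested against 0 h, and few members were called. At 1 h against 0 h, edgeR called 0 members in DMSO (background 0.0334%) and 0 in MAPKi (0.114%), with 1 member in each at an unadjusted p under 0.05 and 0 called by DESeq2. At 5 h, ZFP36L1 was lower in DMSO (118, 102 and 162 CPM, log2 change −0.61 ± 0.16, adjusted p = 0.0353, background 1.06%), but without replicate 1 or 2, or with stable-gene scaling, it was not called (adjusted p = 0.231, 0.511 and 0.0548). BTG1 was lower in MAPKi at 5 h (816, 679 and 710 CPM, log2 change −0.41 ± 0.10, adjusted p = 0.0102, background 3.34%), but without replicate 2 or 3, or with stable-gene scaling, it was not called (adjusted p = 0.173, 0.273 and 0.148). In MAPKi, with stable-gene scaling, BTG2 was at 250% of its 0 h mean after 3 h, which was not tested, and at 214% after 5 h. Its log2 change at 5 h, with TMM, was 1.08 ± 0.60 and was not called (adjusted p = 0.413). With stable-gene scaling, ZFP36L2 was at 166% and 142% and TOB1 at 149% and 113% of their 0 h means at 3 and 5 h. Neither was called at 5 h with TMM (adjusted p = 0.439 and 0.876). Of the calls at 5 h over all genes, 54.7% in DMSO and 37.9% in MAPKi were higher, or 69.2% and 61.9% with stable-gene scaling.

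**Figure D2:**
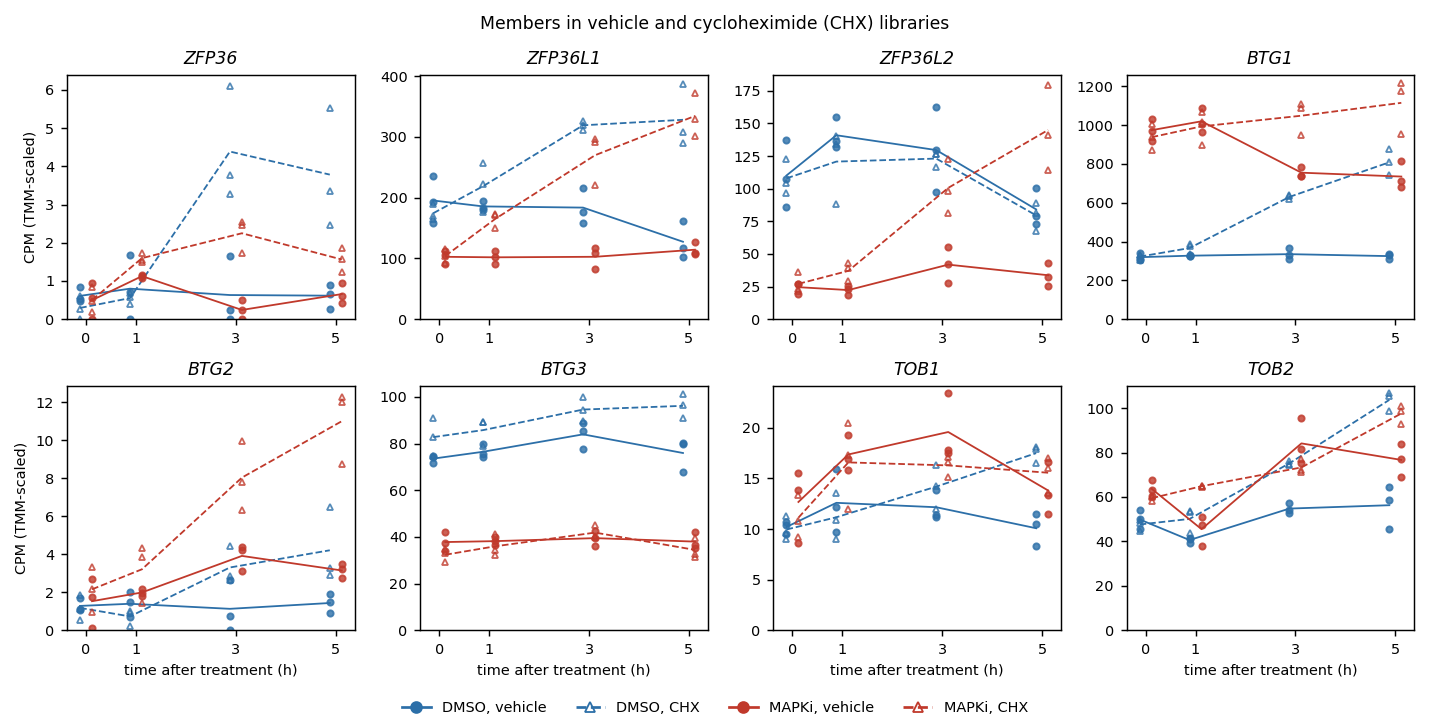
Levels of each member in CPM (y axis) by hours after inhibitor addition (x axis) in the DMSO (blue) and MAPKi (red) libraries of the vehicle arm (filled circles) and the CHX arm (open triangles), where points are single libraries and lines join means of 3. In CHX, BTG1 and ZFP36L1 rise with time in both pretreatments, and ZFP36L2 rises in MAPKi but not in DMSO.

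The second comparison asked what happened to the adaptor mRNAs when translation was blocked while transcription went on. After 3 and 5 h of CHX, averaged over both times and compared with vehicle at the same times, BTG1, BTG2 and ZFP36L1 were higher in both pretreatments, whereas ZFP36L2 was higher only after MAPKi, a difference that was itself past the threshold. ZFP36 is left out of the counts and given without a test, since it passed the filter only because it was high in CHX. Of the other 7 members, 6 were called higher and 0 lower in DMSO, against a background of 31.7% called and 18.3% higher. In MAPKi, 4 of 7 were called higher and 0 lower, against 29.8% called and 15.9% higher. The direction of calls over all genes depended on the scaling, since 57.6% of calls in DMSO and 53.4% in MAPKi were higher with TMM, and 81.2% and 94.2% with stable-gene scaling, where the all-gene median became 0.14 for DMSO and 0.28 for MAPKi on the log2 scale instead of 0.01 and −0.01.

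ZFP36L2 showed the sharpest contrast between the pretreatments. In DMSO it was at 97.2, 129 and 162 CPM at 3 h and 72.9, 78.8 and 100.8 CPM at 5 h in vehicle, and at 127, 126 and 116 CPM and 67.8, 81.4 and 89.4 CPM in CHX. These values overlapped at both times (log2 change −0.08 ± 0.17, adjusted p = 0.786). In MAPKi it was at 42.4, 27.9 and 55.1 CPM at 3 h and 25.5, 32.2 and 43.3 CPM at 5 h in vehicle, and at 81.0, 123 and 97.9 CPM and 114, 180 and 141 CPM in CHX. Every CHX library was above every vehicle library (log2 change 1.67 ± 0.18, adjusted p = 2.14e-12), and the CHX levels at 5 h exceeded those of the DMSO cells. The change in MAPKi minus that in DMSO was 1.75 ± 0.25 on the log2 scale (adjusted p = 8.81e-08). In this contrast 11.2% of all genes were called, with 41.3% of the calls higher, or 77.7% with stable-gene scaling.

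ZFP36L1 rose under CHX in both pretreatments. In DMSO it was at 158, 177 and 216 CPM at 3 h and 118, 102 and 162 CPM at 5 h in vehicle, and at 326, 312 and 319 CPM and 290, 308 and 388 CPM in CHX, without overlap (log2 change 1.08 ± 0.11, adjusted p = 5.27e-13). In MAPKi it was at 110, 82.0 and 116 CPM and 110, 107 and 126 CPM in vehicle, and at 221, 296 and 292 CPM and 302, 372 and 329 CPM in CHX (log2 change 1.47 ± 0.11, adjusted p = 1.88e-18). The difference between pretreatments was 0.39 ± 0.16 (adjusted p = 0.1), and it was called in 4 of 8 alternatives, with adjusted p from 0.00831 with stable-gene scaling to 0.395 without replicate 2. ZFP36 had 27 counts in the 6 vehicle libraries at 3 and 5 h in DMSO and 178 in the 6 CHX libraries, and 22 and 101 counts in MAPKi. CHX libraries were at 3.28 to 6.1 CPM at 3 h and 2.45 to 5.53 CPM at 5 h in DMSO, and at 1.24 to 2.55 CPM over both times in MAPKi, above every vehicle library of the same pretreatment and times (log2 change 2.63 ± 0.58 in DMSO and 2.10 ± 0.60 in MAPKi, given as a description).

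BTG1 rose less under CHX after MAPKi than in DMSO, from a higher vehicle level. In DMSO it was at 368, 328 and 309 CPM at 3 h and 334, 332 and 308 CPM at 5 h in vehicle, and at 617, 633 and 640 CPM and 876, 808 and 741 CPM in CHX (log2 change 1.11 ± 0.07, adjusted p = 2.65e-22). In MAPKi it was at 739, 786 and 739 CPM and 816, 679 and 710 CPM in vehicle, and at 1110, 949 and 1086 CPM and 1215, 954 and 1175 CPM in CHX (log2 change 0.54 ± 0.07, adjusted p = 5.27e-09). The libraries did not overlap in either pretreatment, and the difference between pretreatments was −0.58 ± 0.10 (adjusted p = 2.11e-05). BTG2 had 52 counts in the 6 vehicle libraries and 177 in the 6 CHX libraries in DMSO, and 163 and 536 counts in MAPKi. In DMSO the highest vehicle library and the lowest CHX library were both at 2.65 CPM, so that the groups touched (log2 change 1.54 ± 0.43, adjusted p = 0.00344), and in MAPKi the vehicle libraries were at 2.72 to 4.4 CPM and the CHX libraries at 6.34 to 12.3 CPM (log2 change 1.41 ± 0.38, adjusted p = 0.00258, or 0.0656 without replicate 2).

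TOB2 rose under CHX in DMSO, where it was at 57.5, 52.8 and 54.1 CPM at 3 h and 58.5, 45.8 and 64.6 CPM at 5 h in vehicle, and at 76.3, 74.2 and 75.0 CPM and 98.9, 107 and 106 CPM in CHX (log2 change 0.66 ± 0.10, adjusted p = 1.52e-07). In MAPKi the log2 change of TOB2 was 0.07 (adjusted p = 0.648) with TMM and 0.38 (adjusted p = 0.00245) with stable-gene scaling. The difference between pretreatments was −0.59 ± 0.14 (adjusted p = 0.00213), and without replicate 2 its adjusted p was 0.0725. TOB1 (0.51 ± 0.18, adjusted p = 0.0222) and BTG3 (0.26 ± 0.08, adjusted p = 0.00694) were called higher in DMSO. Without replicate 1 their adjusted p was 0.403 and 0.201, and without replicate 2 it was 0.0713 and 0.074. In MAPKi, TOB1 had a log2 change of −0.05 (adjusted p = 0.864) and BTG3 one of −0.03 (adjusted p = 0.825), which was 0.27 (adjusted p = 0.00711) with stable-gene scaling. The differences between pretreatments did not pass the threshold for TOB1 (−0.56, adjusted p = 0.141) or BTG3 (−0.29, adjusted p = 0.0851).

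After 1 h of CHX, edgeR called 0 members in DMSO and 0 in MAPKi (background 0.0736% in each), with 1 and 3 members at an unadjusted p under 0.05 and 0 and 2 called by DESeq2. For the difference between pretreatments it called 0 (background 0.0201%), with 2 at an unadjusted p under 0.05 and 0 by DESeq2. ZFP36L1 in MAPKi came closest (log2 change 0.69, adjusted p = 0.0546), and it was called in 6 of the alternatives, among them DESeq2 (0.68, adjusted p = 0.0117).

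**Figure D3:**
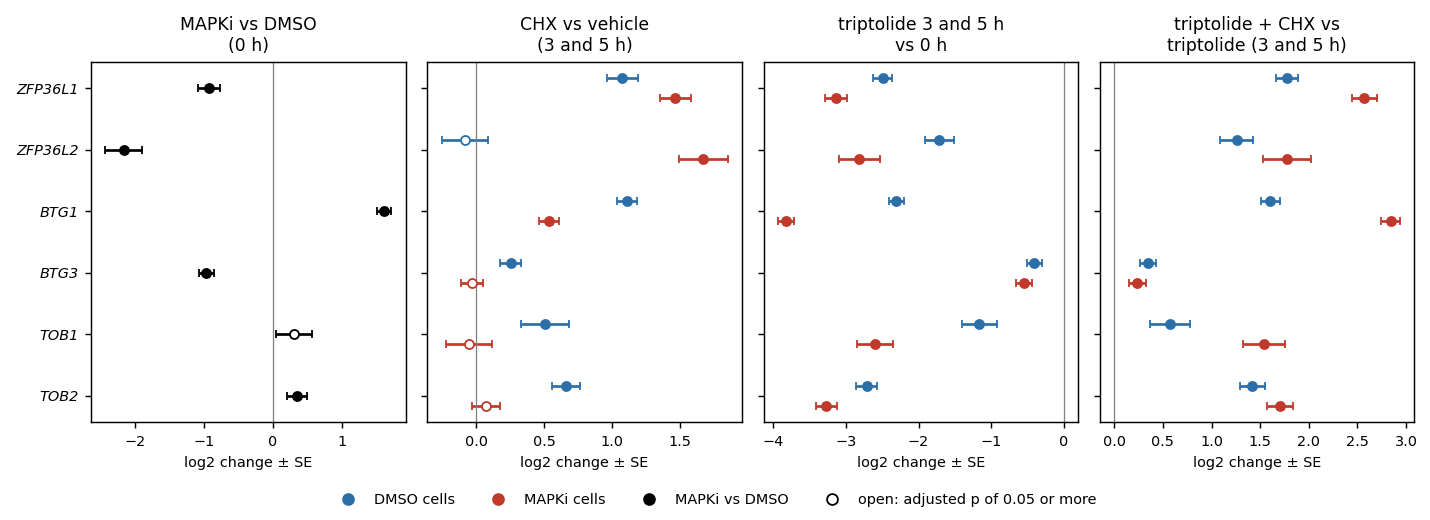
Log2 change ± SE (x axis) of 6 members for MAPKi against DMSO at 0 h (black) and, at 3 and 5 h, for CHX against vehicle, triptolide against its 0 h and TCHX against T in DMSO (blue) and MAPKi (red), where open symbols mark an adjusted p of 0.05 or more. ZFP36L2 under CHX lies at −0.08 in DMSO and 1.67 in MAPKi, and under TCHX the values for BTG1 are 1.61 in DMSO and 2.84 in MAPKi.

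The third comparison asked how the mRNAs were lost once transcription was blocked. Over 3 and 5 h of triptolide, as compared to triptolide at 0 h, each member fell, and BTG1 fell by more in MAPKi than in DMSO. BTG3 was the exception in size, since it fell no more than the median of all genes. All 8 members were called lower in both pretreatments, with 46.5% of all genes called and 45.2% lower in DMSO, and 56.6% called and 55.2% lower in MAPKi. The median of all genes was −0.44 in DMSO and −0.60 in MAPKi with stable-gene scaling, and 0 and 0.06 with TMM, and the share of calls that were higher was 2.82% and 2.56% with stable genes, or 38.3% and 49.2% with TMM. Values relative to the median are therefore given beside the log2 changes of the members with enough counts.

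BTG1 was at 2368, 2485 and 2215 normalized counts at 0 h of triptolide in DMSO and 345, 251 and 214 at 5 h. In MAPKi it was at 8067, 9475 and 6839 at 0 h and at 264, 261 and 333 at 5 h, so that the starting levels differed and the 5 h levels overlapped. The share of the 0 h mean that remained after 1, 3 and 5 h was 85.6%, 35.8% and 11.5% in DMSO and 64.9%, 14.2% and 3.52% in MAPKi. The log2 change over 3 and 5 h was −2.30 ± 0.11 in DMSO (adjusted p = 1.08e-31, −1.87 relative to the median) and −3.83 ± 0.11 in MAPKi (adjusted p = 9.06e-46, −3.23 relative to the median). The difference between pretreatments was −1.52 ± 0.16 (adjusted p = 2.36e-11), or −1.37 relative to a median of −0.15, and it was called in 10 of 10 alternatives. In this contrast 4.27% of all genes were called, with 9.86% of the calls higher, or 49.6% with TMM.

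TOB1 was the other member called for this difference. It was at 71.0, 59.4 and 50.9 normalized counts at 0 h and 32.3, 29.0 and 12.5 at 5 h in DMSO, and at 124, 90.4 and 65.0 and then 9.26, 18.4 and 9.49 in MAPKi. The share remaining after 5 h was 40.7% in DMSO and 13.3% in MAPKi. The log2 change was −1.17 ± 0.24 in DMSO (adjusted p = 3.25e-05, −0.73 relative to the median) and −2.60 ± 0.25 in MAPKi (adjusted p = 4.16e-15, −2.00 relative to the median), with a difference of −1.43 ± 0.35 (adjusted p = 0.00729) that rested on replicate 1, since without it the adjusted p was 0.436. TOB2 fell steeply in both, from 325, 317 and 320 normalized counts to 29.4, 29.0 and 47.5 in DMSO and from 477, 479 and 428 to 19.2, 56.3 and 39.0 in MAPKi. Its log2 changes were −2.72 ± 0.14 (adjusted p = 1.36e-28) and −3.27 ± 0.14 (adjusted p = 1.37e-33), or −2.28 and −2.67 relative to the median, and their difference of −0.55 was not called (adjusted p = 0.131).

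ZFP36L1 went from 1243, 1148 and 1466 normalized counts at 0 h to 207, 180 and 238 at 5 h in DMSO, and from 636, 603 and 819 to 71.2, 73.0 and 56.9 in MAPKi. The share remaining at 3 h was 19.3% in DMSO and 13.5% in MAPKi, and the log2 changes were −2.50 ± 0.13 (adjusted p = 1.76e-28) and −3.14 ± 0.15 (adjusted p = 4.36e-32), or −2.06 and −2.54 relative to the median. ZFP36L2 went from 733, 737 and 820 to 150, 166 and 231 in DMSO, and from 119, 93.8 and 193 to 12.1, 16.1 and 19.0 in MAPKi. Its log2 changes were −1.71 ± 0.20 (adjusted p = 8.36e-12) and −2.81 ± 0.28 (adjusted p = 1.94e-14), or −1.28 and −2.21 relative to the median. For both the difference between pretreatments lay just outside the threshold (ZFP36L1 −0.64 ± 0.20, adjusted p = 0.0533, and ZFP36L2 −1.10 ± 0.35, adjusted p = 0.0562), and in 5 of the alternatives for each it passed.

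In DMSO, BTG3 retained 82.3% of its 0 h mean after 3 h and 69.3% after 5 h, and in MAPKi the shares were 67.5% and 69.9%. The log2 changes of −0.41 ± 0.10 (adjusted p = 0.000446) and −0.55 ± 0.11 (adjusted p = 2.04e-05) differed from the medians of all genes by 0.03 and 0.06, and with TMM they were 0.04 (adjusted p = 0.812) and 0.10 (adjusted p = 0.479). BTG2 had 27 counts in the 3 triptolide libraries at 0 h and 3 counts in the 6 libraries at 3 and 5 h in DMSO, and 21 and 6 counts in MAPKi, and ZFP36 had 5 and 1 counts in DMSO and 10 and 3 in MAPKi. edgeR called both lower, but without replicate 3 ZFP36 was not called in DMSO (adjusted p = 0.135), and at these counts no fold change is given.

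After 1 h of triptolide, edgeR called 0 members in DMSO (background 0.602%, 1 member at an unadjusted p under 0.05, 0 by DESeq2) and 3 lower in MAPKi (background 2.76% called and 2.72% lower, with 1.21% of all calls higher, or 16.7% with TMM). These were ZFP36L1 (log2 change −0.75 ± 0.16, adjusted p = 0.00294), BTG1 (−0.62 ± 0.13, adjusted p = 0.00121) and TOB2 (−0.64 ± 0.16, adjusted p = 0.0128). Leaving out replicate 1 took the adjusted p to 0.0793 for ZFP36L1 and 0.116 for TOB2, and leaving out replicate 2 took it to 0.479 for BTG1 and 0.171 for TOB2. For the difference between pretreatments at 1 h, edgeR called 0 members (background 0.0134%), with 1 at an unadjusted p under 0.05 and 0 by DESeq2.

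**Figure D4:**
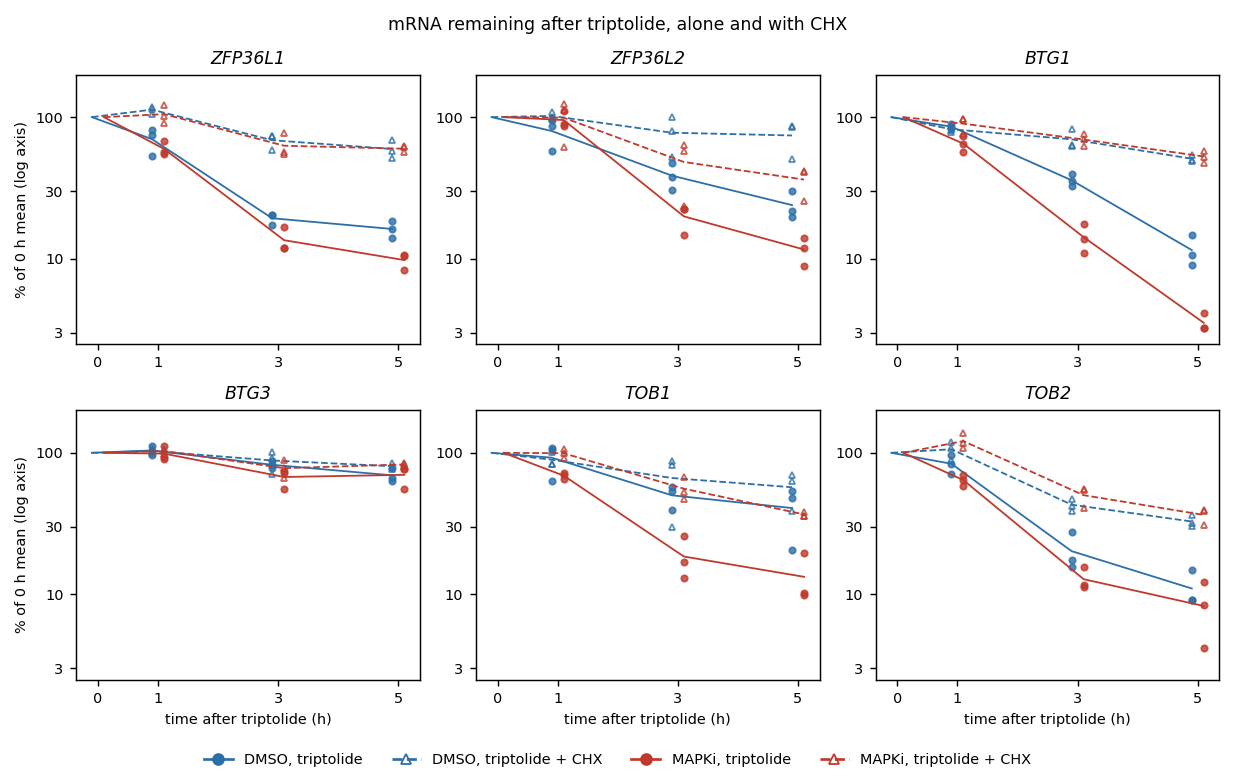
Share of each arm's own 0 h mean (y axis, percent, log scale) that remained in each library by hours of triptolide (x axis) for 6 members, in T (filled circles, solid lines) and TCHX (open triangles, dashed lines), for DMSO (blue) and MAPKi (red), with lines through means of 3. BTG1 in T reaches 11.5% in DMSO and 3.52% in MAPKi at 5 h, and in TCHX it stays at 50.8% and 52.7%.

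The fourth comparison asked how much of this loss depended on translation, by setting TCHX against T. At 3 and 5 h, CHX kept BTG1, ZFP36L1, ZFP36L2, TOB1 and TOB2 at higher levels in both pretreatments, and the effect on BTG1 and ZFP36L1 was larger after MAPKi. In DMSO, 7 of 8 members were called higher, against 28.9% of all genes called and 28.4% higher, and in MAPKi 6 of 8, against 42% called and 41.4% higher. The median of all genes was 0.23 in DMSO and 0.34 in MAPKi, and the share of calls that were higher was 98.4% and 98.7%, or 68.2% and 55.5% with TMM.

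In TCHX at 5 h BTG1 was at 1310, 1189 and 1224 normalized counts in DMSO and 3572, 3226 and 3937 in MAPKi, where T alone had left at most 345 and 333. The log2 difference between TCHX and T was 1.61 ± 0.09 in DMSO (adjusted p = 1.68e-25) and 2.84 ± 0.10 in MAPKi (adjusted p = 1.48e-40), and it was larger in MAPKi by 1.24 ± 0.13 (adjusted p = 3.19e-11, called in 9 of 9 alternatives). In this contrast 7.11% of all genes were called, with 95.9% of the calls higher, or 76.1% with TMM. With CHX present, the share of BTG1 that remained was 69.7% in DMSO and 69.5% in MAPKi after 3 h, and 50.8% and 52.7% after 5 h. ZFP36L1 was at 845, 699 and 627 normalized counts in DMSO and 430, 474 and 466 in MAPKi in TCHX at 5 h. Its log2 difference was 1.78 ± 0.12 (adjusted p = 6.49e-23) and 2.57 ± 0.13 (adjusted p = 4.13e-30), with 0.79 ± 0.17 between pretreatments (adjusted p = 0.000768, called in 9 of 9 alternatives).

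For the other members, the difference between pretreatments was either not called or rested on the processing. ZFP36L2 was higher in TCHX by 1.26 ± 0.17 in DMSO (adjusted p = 2.63e-09) and 1.78 ± 0.25 in MAPKi (adjusted p = 3.21e-09), and TOB2 by 1.42 ± 0.13 (adjusted p = 1.13e-15) and 1.70 ± 0.13 (adjusted p = 5.47e-20). The differences between pretreatments were 0.52 (adjusted p = 0.373) and 0.29 (adjusted p = 0.433). TOB1 was higher by 0.57 ± 0.20 in DMSO (adjusted p = 0.024, but 0.143 without replicate 1, 0.614 without replicate 3 and 0.227 with TMM) and 1.54 ± 0.22 in MAPKi (adjusted p = 3.45e-09). Its difference of 0.97 ± 0.30 (adjusted p = 0.0298) was called in 3 of 9 alternatives, and not without replicate 1 (adjusted p = 0.303), 2 (0.0867) or 3 (0.0677). BTG3 was higher by 0.35 ± 0.08 (adjusted p = 0.000394) and 0.24 ± 0.09 (adjusted p = 0.0236), beside medians of 0.23 and 0.34, and with TMM the MAPKi value was −0.15 (adjusted p = 0.178). Without replicate 1 its adjusted p was 0.0633 in DMSO and 0.317 in MAPKi, and without replicate 2 it was 0.0956 in MAPKi. ZFP36 had 9 counts in the 6 TCHX libraries and 1 in the 6 T libraries in DMSO, and edgeR called it higher (adjusted p = 0.0295, but 0.207, 0.0978 and 0.157 without replicates 1, 2 and 3), but it was too low for a fold change, and BTG2 was not called (adjusted p = 0.278 in DMSO).

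At 1 h, ZFP36L1 was already higher in TCHX than in T after MAPKi (log2 difference 0.96 ± 0.16, adjusted p = 8.06e-05, background 0.368%). In DMSO edgeR called 0 members (background 0.0401%), with 3 at an unadjusted p under 0.05 and 0 called by DESeq2. For the difference between pretreatments it also called 0 (background 0%), with 0 at an unadjusted p under 0.05 and 0 by DESeq2.

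**Figure D5:**
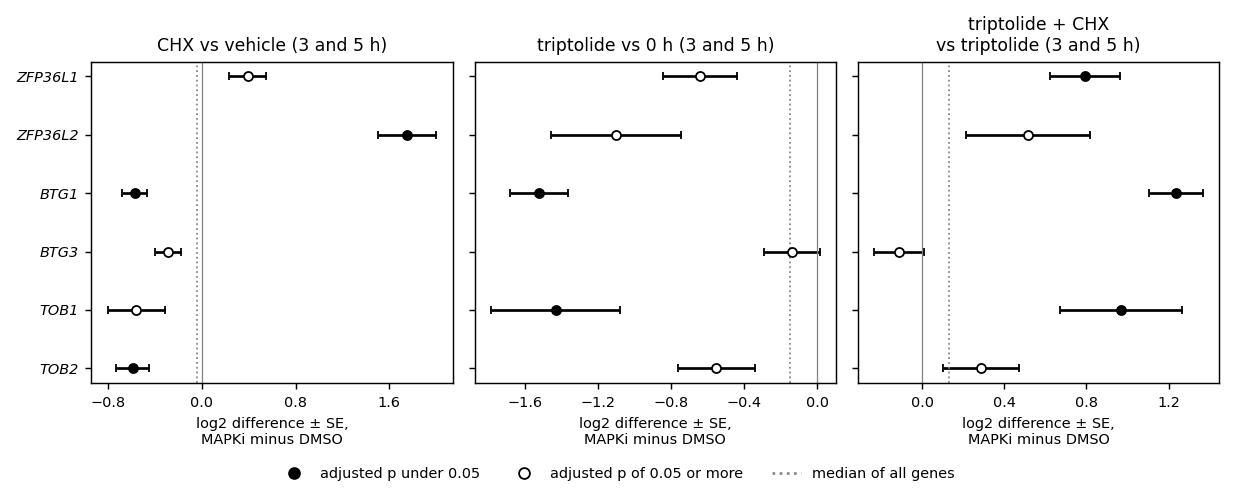
Difference between pretreatments (MAPKi minus DMSO, log2 ± SE, x axis) for 6 members in 3 contrasts at 3 and 5 h: CHX against vehicle, T against T at 0 h, and TCHX against T. BTG1 lies at −0.58, −1.52 and 1.24, and the dotted lines mark the median of all genes.

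The TDD index of the study sets the same libraries on a linear scale, as the normalized count in TCHX minus that in T, divided by the vehicle count at 0 h, and it was averaged here over 3 and 5 h for each replicate number. It was 0.389 ± 0.0178 in DMSO and 0.479 ± 0.0256 in MAPKi for BTG1 (SD, n = 3, exact permutation p = 0.1), and 0.392 ± 0.0632 and 0.517 ± 0.0659 for ZFP36L1 (exact permutation p = 0.2). The value for BTG1 was the smallest p that 3 against 3 allows. It was 0.409 ± 0.164 and 0.285 ± 0.117 for ZFP36L2 (exact permutation p = 0.3), 0.171 ± 0.205 and 0.375 ± 0.248 for TOB1 (p = 0.5, exact), 0.222 ± 0.0466 and 0.235 ± 0.0389 for TOB2 (p = 0.9, exact) and 0.197 ± 0.118 and 0.103 ± 0.0662 for BTG3 (p = 0.3, exact). For BTG2 the index was 0.124 ± 0.218 and −0.125 ± 0.23 (p = 0.4, exact), and for ZFP36 it was undefined because 1 initial library had no count.

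The last comparison set TCHX against CHX at 3 and 5 h and asked how much of the level under CHX needed transcription. Without ZFP36, which was kept for its high values in CHX, all 7 members were called lower in TCHX in both pretreatments, against 46.2% and 57.4% of all genes called and 42.8% and 55.5% lower, with medians of −0.34 and −0.52 (the share of calls that were higher was 7.17% and 3.26%, or 46.2% and 52.8% with TMM). TOB2 was lower by a log2 difference of −2.44 in DMSO and −2.31 in MAPKi, BTG1 by −1.98 and −1.26, ZFP36L1 by −1.73 and −2.54, TOB1 by −1.65 and −1.71, and BTG3 by −0.59 and −0.85. ZFP36L2 differed most between the pretreatments in value, at −0.51 in DMSO (adjusted p = 0.00768, but 0.559 with TMM and 0.0861 without replicate 3) and −3.96 ± 0.20 in MAPKi (adjusted p = 1.93e-30), although the difference itself was not tested for this contrast. ZFP36 and BTG2 had 178 and 177 counts in CHX and 9 and 9 in TCHX in DMSO, and 101 and 536 in CHX and 8 and 3 in TCHX in MAPKi, each summed over 6 libraries.

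Over the 32 groups, with stable-gene scaling, 6 members had their highest mean in the same group, MAPKi with 5 h of CHX: ZFP36L1 (3321 ± 190 normalized counts, SD, n = 3), ZFP36L2 (1433 ± 248), BTG1 (11150 ± 1971), BTG2 (110 ± 23.5), TOB1 (156 ± 26.6) and TOB2 (974 ± 97.9). ZFP36 was highest in DMSO with 3 h of CHX (33.8 ± 11.5) and BTG3 in DMSO with 5 h of CHX (803 ± 45.4). The group that was highest depended on the scaling for TOB1 and TOB2. With TMM, TOB1 was highest in MAPKi with 3 h of vehicle (19.6 CPM, against 15.57 in MAPKi with 5 h of CHX). TOB2 was then highest in DMSO with 5 h of CHX (103.8 CPM, against 97.65 in MAPKi with 5 h of CHX). For the 6 members other than ZFP36 and BTG2, the lowest means with stable-gene scaling were in triptolide alone, at 5 h in MAPKi for ZFP36L1 (67.0 ± 8.8), ZFP36L2 (15.7 ± 3.45) and TOB1 (12.4 ± 5.2), at 5 h in DMSO for BTG1 (270 ± 67.9) and TOB2 (35.3 ± 10.6), and at 3 h in MAPKi for BTG3 (160 ± 24.3). With TMM, BTG3 was lowest in MAPKi with 3 h of TCHX (29.84 CPM, against 31.54 with 3 h of triptolide alone). ZFP36 had no counts in DMSO with 5 h of triptolide, and BTG2 had none in DMSO with 3 h of triptolide or in MAPKi with 3 h of TCHX. Most neighbours in the orders with stable-gene scaling were not separated, since of 31 neighbouring pairs of groups 26 overlapped in their libraries for ZFP36L1 and BTG1, 27 for ZFP36L2, BTG3 and TOB2, 29 for BTG2 and 30 for ZFP36 and TOB1.

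As a description, with no test, members were compared by the Pearson correlation of their group means (log2) over the 32 groups, which share libraries and scaling. TOB1 and TOB2 were most alike (r = 0.952), followed by ZFP36L2 and BTG3 (0.872), BTG1 and TOB1 (0.868), BTG1 and TOB2 (0.865), BTG2 and TOB2 (0.864) and ZFP36L1 and ZFP36L2 (0.860), whereas BTG1 and BTG3 (−0.115), BTG2 and BTG3 (0.213) and BTG1 and ZFP36L2 (0.217) were little alike. The genes outside the family with the closest pattern were DUSP1 (0.884), NUAK2 (0.872) and H1-2 (0.872) for ZFP36, THUMPD1 (0.979), WBP4 (0.974) and KLF6 (0.973) for ZFP36L1, and ADO (0.967), USP6NL (0.966) and CNOT9 (0.965) for ZFP36L2. They were KDM5B (0.981), OTUD7B (0.973) and C21orf91 (0.972) for BTG1, ESCO1 (0.92), PHC3 (0.912) and DNAJC27 (0.893) for BTG2, and EGR3 (0.985) and PHC2 (0.983) for BTG3. For TOB1 they were MTERF1 (0.961), PPM1B (0.959) and ABHD17B (0.958), and for TOB2 CDKN1B (0.985), ZNF791 (0.983) and DYRK1A (0.983). ZFP36 passed the low-count filter only through its high CHX groups and had no count in 23 libraries. Its correlations therefore rest largely on those groups against values near the floor. BTG2, with no count in 15 libraries, has a similar limit.

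The partners that the adaptors recruit were followed as a list of 17 genes of the CCR4-NOT, PAN2-PAN3 and poly(A)-binding protein groups, of which 14 were tested. After MAPKi 1 of the 14 was higher and 6 were lower, where 45.9% of all genes were called, 21.9% higher and 24% lower. The number called was close to that share, but most of the calls were lower. The median log2 difference was −0.26 beside 0.03 for all genes. The lower genes included CNOT9 (−0.84, adjusted p = 1.98e-13), a subunit that docks adaptors, PABPC4 (−0.69, adjusted p = 4.61e-07) and CNOT7 (−0.62, adjusted p = 1.31e-08), the nuclease that BTG and TOB proteins bind, and PAN3 was higher (0.40, adjusted p = 0.0254). Under CHX, 4 were higher and 3 lower in DMSO, with CNOT4 (1.00), CNOT2 (0.56) and PAN3 (0.49) higher and CNOT6L (−0.43), CNOT7 (−0.26) and PABPC1 (−0.23) lower, and 3 were higher and 1 lower in MAPKi, against 31.7% of all genes called in DMSO and 29.8% in MAPKi. Under triptolide, 11 of 14 were lower in DMSO, and 11 were lower and 1 higher in MAPKi, against 45.2% and 55.2% of all genes lower, with medians of −0.47 and −0.74 beside −0.44 and −0.60 for all genes. In TCHX against T, 7 were higher in DMSO, whereas in MAPKi there were 8 higher genes and 1 lower gene, against 28.4% and 41.4% of all genes higher. CNOT2 (0.74) and CNOT9 (0.47) had a larger difference in MAPKi.

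Of 21 other regulators that act through 3′ UTRs, 20 were tested. After MAPKi 7 were higher and 6 lower, against 45.9% of all genes called, 21.9% higher and 24% lower. Among them were CPEB3 (1.46), ZC3H12A (1.23) and CPEB2 (0.79) higher and SAMD4A (−1.68), ELAVL1 (−0.93) and HNRNPD (−0.78) lower. Under CHX, 9 were higher and 3 lower in DMSO, among them ZC3H12A (1.78) and CPEB3 (1.24) higher and TNRC6B (−0.66), ELAVL1 (−0.38) and KHSRP (−0.29) lower, and 4 were higher and 3 lower in MAPKi, against 31.7% of all genes called in DMSO and 29.8% in MAPKi. Under triptolide, 15 of 20 were lower in DMSO and 16 in MAPKi, against 45.2% and 55.2% of all genes, with medians of −0.72 and −0.84 beside −0.44 and −0.60. In TCHX against T, 7 were higher in DMSO and 13 in MAPKi, against 28.4% and 41.4% of all genes.

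Of 24 mRNAs known for AU-rich elements, which ZFP36 family proteins can bind, 15 were tested. After MAPKi 1 was higher, the immediate-early factor FOS (3.00), and 8 were lower. Over all genes 45.9% were called, 21.9% higher and 24% lower. Lower mRNAs included the cytokine LIF and the chemokine CXCL8, which had no count in any of the 3 MAPKi libraries, and cyclin CCND1 (−4.95). The median was −1.47 beside 0.03 for all genes. CCND1 and FOS are also known as targets of the MAPK pathway itself. CXCL3 passed the filter only through the CHX groups and is left out of the CHX counts. Under CHX, 11 of the other 14 were higher and 0 lower in DMSO, against 18.3% of all genes higher, with FOS (6.80), DUSP1 (4.13) and PTGS2 (2.78) highest, and 8 were higher and 0 lower in MAPKi, against 15.9% of all genes higher, with BIRC3 (4.22) and CXCL1 (4.21) highest. Under triptolide 9 of 15 were lower in DMSO, against 45.2% of all genes, and 8 in MAPKi, close to the 55.2% of all genes. In TCHX against T, 6 were higher in each pretreatment, against 28.4% and 41.4% of all genes, among them FOS (2.73 in DMSO and 4.28 in MAPKi) and MCL1 (2.01 and 2.51).

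Of the 8 members, 7 had promoters in the RefSeq table (GRCh38.p14, 250 bases before to 50 after each start site), with 9 promoters in all. Neither the CArG box nor the AP-1 letters TGANTCA were found in any of them on either strand, where 1.29% and 7.71% of 35116 promoters of this length held them. The letters TGACGTCA, held by 1.85% of promoters, were found in 1 of them, the second promoter of ZFP36L1, and TATAAA, held by 11.5%, in that of BTG1. GGGCGG was found in those of ZFP36, BTG1, BTG2, BTG3, TOB1 and TOB2 and in 45.0% of all promoters. No match says only that these letters are not in the window. The BTG1 promoter is shown because BTG1 was the member that rose most with MAPKi. It lies at chr12:92145797-92146096 (minus strand), and the capitals mark TATAAA, 33 bases before the start site.
BTG1 promoter: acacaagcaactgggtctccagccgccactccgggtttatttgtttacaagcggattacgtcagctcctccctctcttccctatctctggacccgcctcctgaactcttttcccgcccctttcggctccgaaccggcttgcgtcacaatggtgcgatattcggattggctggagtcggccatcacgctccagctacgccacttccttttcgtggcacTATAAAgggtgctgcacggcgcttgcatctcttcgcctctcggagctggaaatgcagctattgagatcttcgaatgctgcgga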

How the data were processed

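Cells of the A375 line were profiled by QuantSeq in 96 libraries. Per the methods and the submitters' processing notes, the authors trimmed reads with fastp 0.20.1, mapped them to GRCh38.p13 with HISAT2 2.2.1 and counted them on exons of the NCBI annotation with htseq-count (HTSeq 0.13.5), without molecular identifiers, and deposited raw counts per gene without normalization. The strand setting is not given in the sources used here.

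Genes were kept by filterByExpr (14948 of 44659 entries), and edgeR 4.0.16 (R 4.3.3) was used to fit all libraries together by quasi-likelihood, with a coefficient for each group. Two-sided tests were adjusted by Benjamini-Hochberg over all genes tested, and a call required an adjusted p under 0.05. Each SE was back-calculated as the absolute log2 change divided by the square root of the quasi-likelihood F statistic, so it is approximate. Near a change of 0 it can be too small. For ZFP36 under triptolide at 3 and 5 h it was 0.078 for the difference between pretreatments, against 1.19 in DMSO and 0.99 in MAPKi. TMM scaling was used for vehicle and CHX contrasts. For contrasts with triptolide they were scaled by DESeq2 1.42.0 size factors over 36 stable genes, which in all replicates had more than 0.2 CPM at 0 h, rose at least 1.1 times in CPM at both 3 and 5 h of triptolide, and had a 0 h CPM above 10% of that at each time. The study's rule is worded as 3 or 5 h, which is less strict, gave 526 genes and was an alternative. Percentages of a 0 h mean were taken against the same arm, with stable-gene scaling in every arm, vehicle included. Counts were also simulated for the MAPKi comparison (13039 genes), with 100 genes changed at each fold. Of the 2-fold changes 62% and of the 4-fold changes 85% were recovered, and 5.77% of the calls were false. The simulation held fewer groups and fewer changed genes than the data, so these shares are not the power of the tests reported.

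Replicates came from the titles, and nothing says that they were separate cultures, so p-values measure the spread between these samples, which may be technical. Correlations of log2(count + 1) between replicates ran from 0.943 to 0.977. Floors of 3 counts cover counting error only. Within lists, up to 3 called genes with the largest changes per direction were named for a contrast. The members and lists were chosen with earlier results of these data known, and the 3′ UTR motifs and TATAAA were chosen after the files had been read. The 3′ UTRs were compared with those of 0.8 to 1.25 times the same length. Alternatives were leaving out each replicate, a replicate block, no low-count filter, other scalings, other 0 h baselines and DESeq2. Protein sequences were not used here, and a few items that met the naming rules are not reported here.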

Additional observations from a re-analysis of the deposited data

Results flagged for a closer look

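In 8 of 48 tests of a difference between pretreatments (8 members in 6 contrasts), the effect of an inhibitor in MAPKi differed from that in DMSO past the threshold, all at 3 and 5 h. Over all genes, 11.2% were called at these times under CHX, 4.27% under triptolide and 7.11% for TCHX against T. At 1 h the share was at most 0.0201%. The 48 include ZFP36, which passed the low-count filter only through the CHX groups and was not called. Under CHX against vehicle, the difference (MAPKi minus DMSO, log2) was 1.75 for ZFP36L2, −0.58 for BTG1 and −0.59 for TOB2. For ZFP36L2 the CHX libraries of MAPKi were all above their vehicle libraries, whereas those of DMSO overlapped with theirs. For TOB2 the call was lost without replicate 2 (adjusted p = 0.0725).

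Under triptolide against its 0 h samples, the difference was −1.52 for BTG1 and −1.43 for TOB1, and without replicate 1 that of TOB1 was not called (adjusted p = 0.436). Under TCHX against T, the difference was 0.79 for ZFP36L1, 1.24 for BTG1 and 0.97 for TOB1. That of TOB1 was called in 3 of 9 alternatives, and not without replicate 1, 2 or 3 (adjusted p = 0.303, 0.0867 and 0.0677). BTG1 was thus flagged in 3 contrasts and TOB1 in 2. The contrasts of T with its 0 h samples and of TCHX with T share the T libraries at 3 and 5 h, so their values are not independent of each other. No group had enough libraries for a search for single outlying samples.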

How the results depend on the processing

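Of 1768 member results under alternatives, 1592 kept their direction and their side of the threshold, 81 were called in neither and changed sign, 57 lost the call, 34 gained it and 4 called values reversed. All 4 reversals of called values were of BTG3 with another scaling: 0.27 (adjusted p = 0.00711) for CHX against vehicle at 3 and 5 h in MAPKi with stable-gene scaling, 0.037 for triptolide at 3 and 5 h in DMSO and 0.10 in MAPKi with TMM, and −0.15 for TCHX against T at 3 and 5 h in MAPKi with TMM. Log2 values of BTG3 near the median of all genes therefore depend on the scaling.

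Leaving out 1 replicate gave 0 to 1 members called at 5 h of vehicle in DMSO (1 with all replicates) and 0 to 1 in MAPKi (1), 0 to 1 after 1 h of CHX in MAPKi (0), 1 to 3 after 1 h of triptolide in MAPKi (3), 1 to 3 for the difference between pretreatments under triptolide at 3 and 5 h (2), and 4 to 6 for TCHX against T at 3 and 5 h in DMSO (7). Stable-gene scaling gave 0 at 5 h of vehicle in both pretreatments and 2 after 1 h of CHX in MAPKi, where DESeq2 and no filter on low counts also gave 2, and total counts and the replicate block gave 1. No filter gave 1 for the difference between pretreatments after 1 h of CHX. After 1 h of triptolide in DMSO, no filter, stable genes at 3 or 5 h and the vehicle arm as the initial level each gave 1, and in MAPKi TMM gave 1. For the difference between pretreatments under triptolide at 3 and 5 h, the replicate block, no filter, stable genes at 3 or 5 h and DESeq2 each gave 4. For TCHX against T at 1 h, no filter and stable genes at 3 or 5 h gave 1 in DMSO, and no filter and DESeq2 gave 2 in MAPKi, and at 3 and 5 h TMM gave 4 in DMSO. The cause of these shifts was not tested.

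The TDD index difference (MAPKi minus DMSO) moved from 0.0895 to 0.126 for BTG1 and from −0.249 to −0.496 for BTG2 with TMM, and from 0.0127 to 0.06 for TOB2 without replicate 1. The main fit did not pair libraries by replicate number, and no contrast had correlations over 0.1 in every pair (−0.271 to 0.283). Some pairs did pass 0.1, 26 of 84 for the difference between pretreatments under CHX at 3 and 5 h. Such a rule therefore cannot exclude pairing. With the replicate block, 79 of 200 member results were called, against 76 without it, and all 76 were shared. The block added ZFP36L1 after 1 h of CHX in MAPKi (0.70, adjusted p = 0.0157) and, for the difference under triptolide, ZFP36L1 (−0.63, adjusted p = 0.039) and ZFP36L2 (−1.08, adjusted p = 0.0457).

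Counts over all genes moved by more than 1.5 times in these cases. MAPKi against DMSO went from 6867 to 10311 when averaged over the vehicle times. The difference between pretreatments went from 1679 to 767 and 806 (without replicates 1 and 3) under CHX, from 639 to 134, 118 (without replicates 1 and 2) and 371 (TMM) under triptolide, and from 1063 to 402, 400 and 674 (without replicates 1, 2 and 3) and 553 (TMM) for TCHX against T. Triptolide at 3 and 5 h in DMSO went from 6953 to 4518 with total counts, and TCHX against T in DMSO from 4317 to 2831 without replicate 3. Triptolide at 1 h went from 412 to between 55 and 1728 in MAPKi, and from 90 to between 33 and 46 without a replicate in DMSO. Vehicle at 5 h went from 159 to between 40 and 410 in DMSO and from 499 to between 113 and 323 in MAPKi. Of the remaining 1 h contrasts, vehicle went from 5 to between 1 and 34 in DMSO and from 17 to between 3 and 39 in MAPKi, CHX from 11 to between 4 and 38 in DMSO and from 11 to between 2 and 190 in MAPKi, and TCHX against T from 6 to between 0 and 24 in DMSO and from 55 to between 16 and 119 in MAPKi. The differences between pretreatments at 1 h went from 3 to between 0 and 232 under CHX, from 2 to between 0 and 67 under triptolide, and from 0 to 13 for TCHX against T. ZFP36 and BTG2 were limited by low counts in all triptolide groups. At 3 and 5 h with triptolide, no library held more than 7 counts of either.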
